A study of Mus musculus with 2 samples.

Results

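Chaperone and heat shock protein genes were compared between 2 arrays of sorted mouse regulatory T (Treg) cells. The members were all gene probes of the array whose gene name began with Hspa, Hspb, Hspd, Hspe, Hsph, Hsp90, Dnaj or Bag, or with Cct and a digit. This rule used names and no measured value. It took in 128 probes in 146 spots, for 88 genes of 30120 gene names on the array. By class these were 26 heat shock genes (12 Hspa, 8 Hspb, 3 Hsp90, and Hspd1, Hspe1 and Hsph1), 45 J-domain genes, 9 Cct genes, 6 Bag genes, and Hspbp1 and Hspbap1. The last 2 share only the stem of their names with the small heat shock proteins. Hspa1b, a copy of Hspa1a, had no probe under its own name.

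In the study, 1 library was labelled Nr4a-deficient (its cells came from mice described as Nr4a-TKO) and the other wild-type. Both were from mice aged 5 weeks, and there was 1 array per group. The alleles, any Cre line, the mouse strain, the tissue, the sort markers and the number of mice in each library are not given in the sources used here. Treg cells are the CD4 T cells that hold immune reactions in check, and Nr4a1, Nr4a2 and Nr4a3 are nuclear receptors that T cell receptor signalling induces.

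Chaperones bind unfolded or partly folded proteins and keep them from aggregating. Hsp70 proteins (the Hspa genes) do so in cycles of ATP binding and hydrolysis. J-domain proteins (Dnaj) start these cycles, and nucleotide exchange factors, such as Hsp110 and most Bag proteins, end them. Hsp90 proteins mature kinases and steroid receptors, the chaperonins (Hspd1 with Hspe1 in mitochondria, the Cct ring in the cytosol) enclose a client in a chamber, and small heat shock proteins (Hspb) hold clients without ATP. Heat shock factor 1 drives the cytosolic genes through heat shock elements, while the unfolded protein response drives those of the endoplasmic reticulum (ER). T cells raise both sets when they are activated and grow.

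Values are processed signals in intensity units, followed by the difference of their log2 values, taken as the Nr4a-deficient label minus wild-type, with the 75th percentile of each array as its scale. Signals are printed before scaling: that percentile was 1762 units in the library labelled Nr4a-deficient, against 2047 in wild-type, so a gene with similar signals on both arrays has a difference above 0. Other settings tried were further scales (among them control RNAs spiked into each sample, here the spike-in scale), another background correction (normexp) and other ways to choose probes. The median shift of the members was -0.097 with the median of all probes as the scale and -0.371 with the spike-in scale. It was at most 0.023 in the other settings, so genes below 0 tended to stay there. A gene with several probes is represented by its brightest detected probe. With 1 array per group no difference could be tested, and every fold below describes these 2 libraries. Counts of higher and lower genes take those past 2-fold. For probes printed in 10 spots, the median SD of a difference between single spots was 0.067 at scaled log2 values of 0 to 2, 0.19 at -4 to -2 and 0.41 at -6 to -4. It covers spot noise and leaves out differences between mice, sorts and RNA preparations. In such bulk samples, fewer cells of a type and less RNA per cell cannot be told apart.

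The Nr4a1 and Nr4a2 probes went against the label. Nr4a1 had 80407 units in the library labelled Nr4a-deficient, against 51441 in wild-type, 1.82-fold higher. Nr4a2 had 3134 and 1850, 1.97-fold higher, and Nr4a3 failed the background call on both (22.3 and 71.6 units). Whether these probes lie in a deleted part of the genes was not tested, so each direction below is that of the library as labelled. Foxp3, the factor that defines Treg cells, was barely above background, at 74.5 units in the library labelled Nr4a-deficient, against 85.4 in wild-type, where the lowest signals called well above background were 51.1 and 73.8. The T cell genes Cd3e, Cd3d, Cd4 and Lck were well above background on both arrays.

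The chaperone genes as a whole differed little between the libraries. Of the 88 members, 73 were detected, 70 of them on both arrays, 3 only in the library labelled Nr4a-deficient and none only in wild-type. Of all 18540 detected genes, 16298 were measured on both arrays. More probes passed the background call in the library labelled Nr4a-deficient (58.7%, against 55.6% in wild-type). The 3 members are therefore not read as a trait of the chaperones. Among the 73 detected members, 1 gene was at least 2-fold higher, Cct6b, where 4.7% of all 18540 detected genes were. Likewise 1 gene was at least 2-fold lower, Hspb1, where 4.94% of all detected genes were. Each count is 1.37% of the detected members, and together they are 2 of 73, where 9.63% of all detected genes passed 2-fold in either direction. The median log2 difference was -0.024 for the members and 0.0033 for all detected genes. Of the 70 members measured on both arrays, 97.1% lay within 2-fold, 28 lay above 0 and 42 below, and the quartiles were -0.19 and 0.085. Among all genes measured on both arrays, 52.2% lay below 0.

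**Figure D1:**
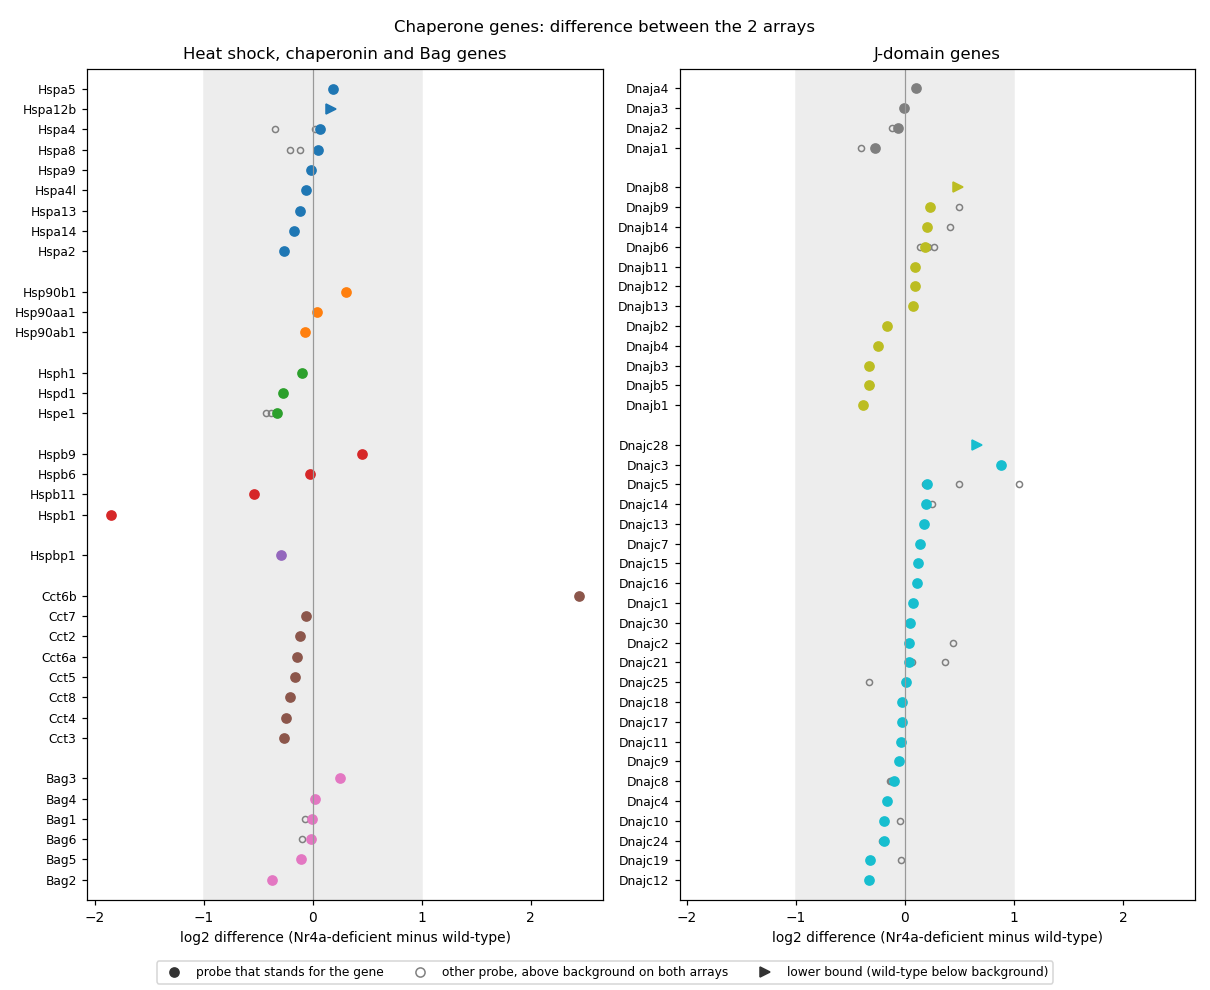
Log2 difference (x axis, Nr4a-deficient label minus wild-type) of each detected chaperone gene, by class, with 1 array per group. Filled circles are the probe that stands for the gene, and open circles its other probes. Triangles are lower bounds for genes below background in wild-type, except Hspa12b, which is drawn at its measured difference. The grey band marks 2-fold, and Cct6b at 2.45 and Hspb1 at -1.85 are the genes outside it.

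Hsp70 chaperones and their Hsp110 relatives lay near 0. Of the 12 Hspa genes, 9 were detected, none reached 2-fold, 4 lay above 0 and 5 below, and the median was -0.016 (0.0087 after quantile normalization). Hspa8, the constitutive cytosolic Hsp70, had 155948 units in the library labelled Nr4a-deficient, against 175129 in wild-type (log2 difference 0.05), and its 3 probes ran from -0.20 to 0.05, so its direction depended on the probe. Hspa4, an Hsp110 exchange factor, had 28152 and 31234 units (0.07), with probes from -0.35 to 0.07, and Hspa4l, its close relative, stood at -0.06. Hspa9, the mitochondrial Hsp70 mortalin, had 6241 and 7329 units (-0.02). Thus the main Hsp70 of the cytosol and that of mitochondria differed by less than the probes of 1 gene did.

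Hspa5, the ER Hsp70 known as BiP, had the highest difference among the Hspa genes measured on both arrays, with 52550.4 units in the library labelled Nr4a-deficient, against 53629.9 in wild-type (0.19). Hspa2, a testis-enriched Hsp70, had the lowest, with 688 and 958 units (-0.26). Hspa14, which works with Dnajc2 on the ribosome, had 18995 and 24785 units (-0.17), and Hspa13, a microsomal ATPase of the family, had 1337 and 1684 (-0.12). The distant relative Hspa12b passed the background call on 1 array, that of the library labelled Nr4a-deficient, at 76.5 and 79.1 units. Its measured difference was 0.17 (1.12-fold), where spot noise was 0.41. Across the settings tried Hspa12b ran from -0.20 to 0.17. The strictly heat-induced Hspa1a failed the background call on both arrays, at 14.5 units in the library labelled Nr4a-deficient, against 66.2 in wild-type, as did the testis gene Hspa1l and Hspa12a. No fold is therefore given for Hspa1a.

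Of the 3 Hsp90 genes, all detected, none reached 2-fold. The cytosolic forms lay close to 0. Hsp90ab1, the constitutive form, had 127193 units in the library labelled Nr4a-deficient, against 154559 in wild-type (-0.07), and Hsp90aa1, the inducible form, had 21061 and 23804.5 (0.04). Hsp90b1, the ER form known as Grp94, which folds integrins and Toll-like receptors, had 40094 and 37598 units (0.31). Across the settings tried, Hsp90b1 ran from -0.06 with the spike-in scale to 0.34.

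Hspd1 and Hspe1, the subunits of the mitochondrial chaperonin (Hsp60 and its lid Hsp10), both lay below 0. Hspd1 had 21178 units in the library labelled Nr4a-deficient, against 29659 in wild-type (-0.27). Hspe1 had 18609 and 27083 units (-0.33), and its 3 probes agreed in direction, from -0.43 to -0.33. The differences of both genes were several times the spot noise at their level and stayed below 0 in every setting tried, from -0.64 to -0.23 for Hspd1 and from -0.70 to -0.29 for Hspe1. Hsph1, the heat-inducible Hsp110, had 5298 and 6595 units (-0.10 at each of its 2 probes). Hspd1 and Hspe1 stand head to head in the genome and their RefSeq promoter windows overlap (GRCm38.p6, 250 bases before to 50 after the start). The Hspd1 window is printed because both genes lay below 0. Capitals mark a run of overlapping heat shock elements (GAANNTTC or TTCNNGAA):
Hspd1 promoter, chr1:55087883-55088182, - strand: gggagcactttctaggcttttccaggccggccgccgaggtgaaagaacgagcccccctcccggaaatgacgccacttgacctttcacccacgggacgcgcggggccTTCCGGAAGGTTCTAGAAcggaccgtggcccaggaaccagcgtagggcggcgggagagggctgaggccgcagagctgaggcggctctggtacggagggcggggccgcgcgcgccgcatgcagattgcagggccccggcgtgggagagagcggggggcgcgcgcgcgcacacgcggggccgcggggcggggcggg

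Of the 8 small heat shock protein genes, 4 were not detected (Hspb2, Hspb3, Hspb7 and Hspb8, which are mostly genes of muscle and heart). Hspb1, which encodes the actin-binding and stress-induced Hsp25, was the only member at least 2-fold lower. It had 79.3 units in the library labelled Nr4a-deficient, against 332 in wild-type, 3.61-fold lower (log2 difference -1.85). The signal in the library labelled Nr4a-deficient was close to the lowest signal called there, and the spot noise at the mean level of the 2 arrays was 0.19. At the level of the dimmer signal alone (scaled log2 value -4.47) spot noise was 0.41. Across the settings Hspb1 ran from -2.22 with the spike-in scale to -1.09 with normexp background correction, which compresses dim signals. It rests on 1 probe in 1 spot per array. A probe for another transcript shares a stretch of 20 bases with it. That probe failed the background call on both arrays, at 48.7 units in the library labelled Nr4a-deficient, against 15.3 in wild-type. No direction is therefore read from it. The probe and the promoter window, with 2 heat shock elements in capitals, read:
Hspb1 probe on build mm9, chr5:136365366-136365425, + strand: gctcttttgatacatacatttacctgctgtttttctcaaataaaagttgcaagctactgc
Hspb1 promoter, chr5:135887669-135887968, + strand: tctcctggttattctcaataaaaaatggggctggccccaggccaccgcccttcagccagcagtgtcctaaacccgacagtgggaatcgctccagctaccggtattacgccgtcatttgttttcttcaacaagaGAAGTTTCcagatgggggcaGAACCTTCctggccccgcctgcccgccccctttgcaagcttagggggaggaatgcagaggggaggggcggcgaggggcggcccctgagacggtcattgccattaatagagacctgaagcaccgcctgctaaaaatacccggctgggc

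The other detected Hspb genes lay within 2-fold. Hspb11, which despite its name is a part of the intraflagellar transport complex, had 2412 units in the library labelled Nr4a-deficient, against 4058 in wild-type (-0.53, 1.45-fold). It stayed below 0 in every setting. Hspb6, the muscle protein Hsp20, had 592 and 697 units (-0.02). Hspb9, a testis gene, had 313 and 264 units (0.46) at signals where spot noise was 0.19. Hspbp1, an Hsp70 exchange factor, had 1965 and 2791 units (-0.29), and Hspbap1, a partner of the Hspb1 protein, failed the background call on both arrays.

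The cytosolic chaperonin folds actin and tubulin and is built as a ring of different subunits. Its 7 Cct ring genes all lay below 0, with a median of -0.16 and a narrow range of -0.26 to -0.06. Cct3 had 4642 units in the library labelled Nr4a-deficient, against 6464 in wild-type (-0.26), Cct4 had 9591 and 13172 (-0.24), and Cct8 had 12396 and 16611 (-0.21). Cct5 had 43931 and 56887 units (-0.16), Cct6a had 1819 and 2333 (-0.14), Cct2 had 31478 and 39650 (-0.12), and Cct7 had 18156 and 22002 (-0.06). The subunit outside the naming rule, Tcp1, had 8533 and 11009 units (-0.15). Each of the 7 lay below 0 in every setting tried, and with the 75th percentile scale the largest was a 1.20-fold difference. That is a weak check, since the settings mostly moved values down or hardly at all. With no filter on dim probes, 1 of the 7 lay above the median of all genes, which was -0.11 there. Subunits of 1 complex are not replicates, so the run of signs of the 7 genes was not tested.

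Cct6b, the testis form of the Cct6 subunit, was the only member at least 2-fold higher. It had 435 units in the library labelled Nr4a-deficient, against 92.7 in wild-type, 5.45-fold higher (log2 difference 2.45). The wild-type signal was just above the lowest signal called there, 73.8. Spot noise was 0.19 at the mean level of the 2 arrays and 0.41 at the level of the wild-type signal alone. Cct6b rests on 1 probe in 1 spot per array. Across the settings it ran from 1.70 with normexp to 2.45, so it stayed past 2-fold. Cct6a, the form used in most tissues, stood at -0.14, and no stretch of 20 bases of the Cct6b probe was found in a probe of another gene. Cct8l1, a relative of Cct8, was not well above background. The probes of both Cct6 genes are shown so that their sequences can be told apart:
Cct6b probe on build mm9, chr11:82532762-82532821, - strand: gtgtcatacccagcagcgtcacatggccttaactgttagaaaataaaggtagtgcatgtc
Cct6a probe on build mm9, chr5:130300316-130300375, + strand: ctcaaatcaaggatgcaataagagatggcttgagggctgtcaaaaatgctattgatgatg

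**Figure D2:**
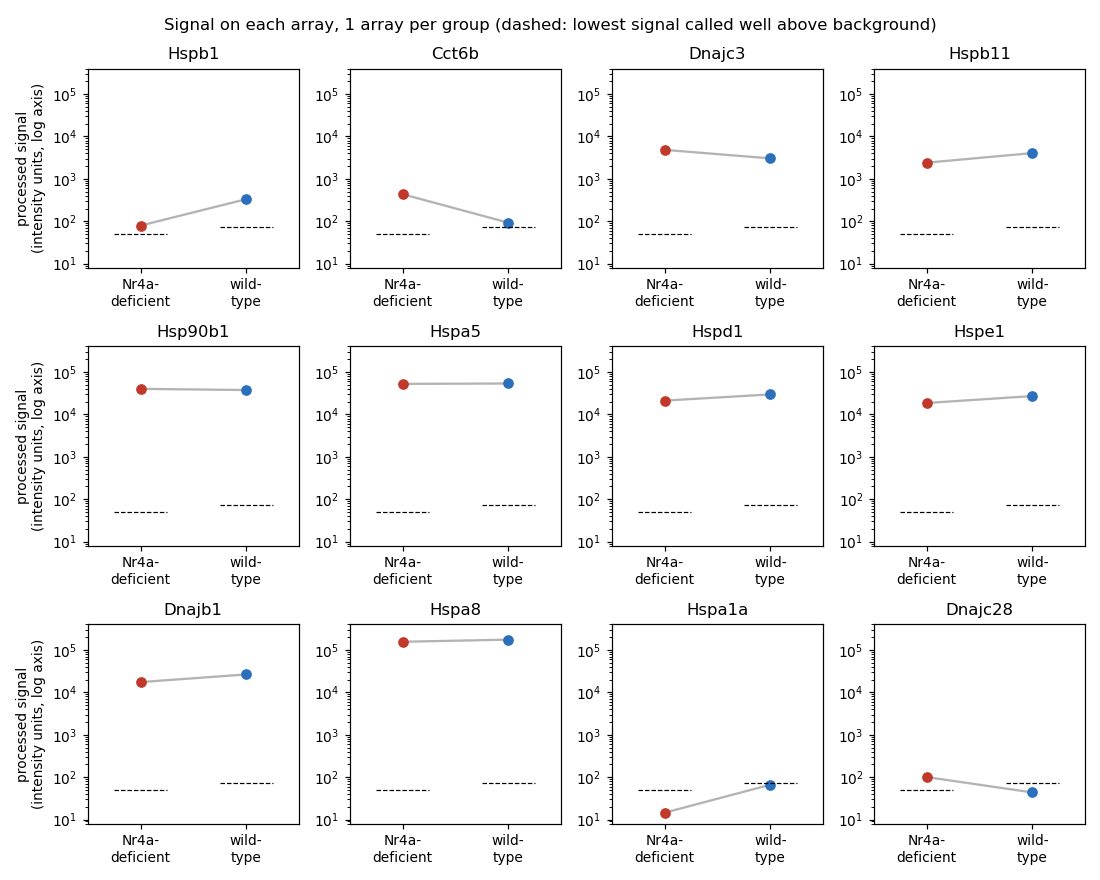
Processed signal (y axis, intensity units, log axis) of 12 chaperone genes on the 2 arrays, with the library labelled Nr4a-deficient at left and wild-type at right in each panel, before scaling. Dashed lines are the lowest signal called well above background on each array (51.1 and 73.8); Hspb1 and Cct6b come close to it on 1 array each, and Hspa1a lies below it on both.

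All 6 Bag genes, most of which encode exchange factors that release clients from Hsp70, were detected and none reached 2-fold. Their median was -0.01. Bag3, the stress-induced member that sends clients to autophagy, had 2365 units in the library labelled Nr4a-deficient, against 2302 in wild-type (0.26, and -0.12 with the spike-in scale). Bag2, which inhibits the Hsp70-linked ubiquitin ligase Stub1, had 174 and 261 units (-0.37). Bag1, a partner of Bcl2, had 30783.5 and 35966 units (-0.01), and Bag6, which handles tail-anchored membrane proteins, had 15885 and 18592 (-0.01). Bag4, a silencer of TNF receptor 1, stood at 0.02 and Bag5 at -0.11. Bag2 stayed below 0 in every setting tried.

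J-domain genes are the largest class, and none of them reached 2-fold. Of the 45 genes, 39 were detected, with a median of 0.035 (-0.06 with the median of all probes as the scale, -0.34 with the spike-ins). The median of the 4 Dnaja genes was -0.035. Dnaja1, a cytosolic partner of Hspa8, had 37014 units in the library labelled Nr4a-deficient, against 51943 in wild-type (-0.27, with -0.41 at its other probe), and it lay below 0 in every setting. Dnaja2, its relative, stood at -0.07, Dnaja3, the mitochondrial form, at -0.0047, and Dnaja4 at 0.10 (3905 and 4222 units).

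Among 13 Dnajb genes 12 were detected, with a median of 0.082. Dnajb1, the main heat-inducible Hsp40 of the cytosol, had 17456 units in the library labelled Nr4a-deficient, against 26454 in wild-type (-0.38, 1.30-fold), the lowest value of all J-domain genes. Dnajb5 had 1756 and 2565 units (-0.33), and Dnajb4, another heat-inducible form, had 127 and 175 (-0.25). The ER-directed and ER-anchored forms lay on the other side of 0. Dnajb9, an ER partner of BiP that holds the stress sensor Ern1 in check, had 1755 and 1743 units (0.23, and 0.50 at its other probe). Dnajb14 and Dnajb12, which sit in the ER membrane, stood at 0.20 and 0.09. Dnajb6, which keeps polyglutamine proteins soluble, had 8109 and 8267 units (0.19), with all 4 probes between 0.14 and 0.26. With the spike-in scale, Dnajb6, Dnajb9, Dnajb12 and Dnajb14 each turned below 0.

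Testis genes of this class did not reach 2-fold. Dnajb8 had 89.3 units in the library labelled Nr4a-deficient, with wild-type below background at 63.2, a bound of at least 1.40-fold. Dnajb3 had 125 and 182 units (-0.33), Dnajb13, a protein of sperm tails, stood at 0.08, and Dnajb7 was not detected. Dnajb2, a neuronal form, stood at -0.16.

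Dnajb11, an ER partner of BiP, had 2 probes that disagreed in size. The brighter one gave 8484 units in the library labelled Nr4a-deficient, against 9241 in wild-type (0.09). The other one gave 471 and 16.7 units, which with wild-type below background is a bound of at least 7.41-fold. The probes lie 7545 bases apart, and both carry an accession of Dnajb11. With the mean of the measured values of both probes Dnajb11 would count as higher, but that mean rests on a wild-type signal below background and is not given. The exons under the probes were not determined here, since no mm9 annotation was used. The probes read:
Dnajb11 probe 1 on build mm9, chr16:22872067-22872126, + strand: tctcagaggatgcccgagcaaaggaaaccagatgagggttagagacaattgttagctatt
Dnajb11 probe 2 on build mm9, chr16:22879612-22879671, + strand: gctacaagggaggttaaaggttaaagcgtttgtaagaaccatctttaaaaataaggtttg

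Among 28 Dnajc genes 23 were detected, with a median of 0.035. Dnajc3, an ER chaperone also known as p58IPK that binds unfolded clients and blocks the kinases of the translation factor eIF2 alpha, had the highest difference of all J-domain genes measured on both arrays. It had 4836 units in the library labelled Nr4a-deficient, against 3045 in wild-type (0.88, 1.84-fold). It stayed above 0 in every setting, from 0.51 to 0.91, and spot noise at its level was 0.067. Dnajc28 likewise passed the background call only for the library labelled Nr4a-deficient, at 100.4 units, with 43.6 in wild-type, a bound of at least 1.58-fold. At 1.5-fold, where 8.72% of all detected genes were higher, Cct6b, Dnajc3 and Dnajc28 were the members counted. In the other direction, where 8.68% of all detected genes were at least 1.5-fold lower, Hspb1 was again the 1 member.

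Dnajc5, the cysteine string protein of secretory vesicles, had 169164 units in the library labelled Nr4a-deficient, against 170820 in wild-type at its brightest probe (0.20). Its other probes gave 0.18, 0.49 and 1.05, so 1 of 4 probes passed 2-fold. Of the other Dnajc genes above 0, Dnajc14, which aids export of receptors from the ER, stood at 0.19, Dnajc13, an endosomal protein, at 0.17, and Dnajc7, which binds Hsp70 and Hsp90 together, at 0.14. Dnajc2, the ribosome-bound partner of Hspa14, stood at 0.04 and Dnajc21, a factor of ribosome assembly, at 0.03. Dnajc16 stood at 0.11 and Dnajc25 at 0.01, with -0.33 at the other probe of Dnajc25.

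Below 0, Dnajc12, a partner of aromatic amino acid hydroxylases, had 702 units in the library labelled Nr4a-deficient, against 1024 in wild-type (-0.33). Dnajc19, a part of the motor that imports proteins into mitochondria, had 5041 and 7308 units (-0.32, and -0.03 at its other probe). Dnajc24, a factor of diphthamide synthesis, stood at -0.19, Dnajc4 at -0.16, the splicing factor Dnajc8 at -0.10 and the histone chaperone Dnajc9 at -0.05. Dnajc11, a protein of mitochondrial membranes, was printed in 10 spots per array and stood at -0.04, with an SD over spots of 0.080 in the library labelled Nr4a-deficient, against 0.068 in wild-type (log2, single spots). Dnajc17 and Dnajc18 stood at -0.03 and -0.02. The 5 undetected genes were Dnajc5b, Dnajc5g, Dnajc6, Dnajc22 and Dnajc27, of which Dnajc6, or auxilin, is a neuronal gene.

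Heat-inducible genes (cytosolic, with the mitochondrial Hspd1 and Hspe1) and ER genes had list medians on opposite sides of that of all genes. Both lists were chosen with earlier results of these data known, so this contrast is only a description. Of 14 genes listed as heat-inducible, a list that also holds the constitutive Hspa8, 11 were detected, with a median of -0.25, 3 above 0 (Bag3, Hspa8 and Hsp90aa1) and 8 below, and Hspb1 as the 1 gene at least 2-fold lower. All 8 ER members were detected, with a median of 0.14, 6 above and 2 below 0, and none at 2-fold. The 2 ER genes below 0 were Dnajc10, a disulfide reductase, with 3868 units in the library labelled Nr4a-deficient, against 5128 in wild-type (-0.19), and Hspa13. Dnajc1, an ER membrane protein that binds ribosomes, stood at 0.08. With the spike-in scale, which moves all genes by the same amount, the ER list was at -0.23 and not above 0, all genes had a median of -0.37 and the heat-inducible list one of -0.62. With normexp the ER list was at 0.15 and the heat-inducible list at -0.10. The -0.25 of the heat-inducible list is the value of 1 dim gene, Dnajb4, at signals where spot noise was 0.19.

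The 8 mitochondrial members had a median of -0.028, with 2 above 0, Dnajc15 (an inner membrane protein that restrains respiration) at 0.12 and Dnajc30 at 0.05. Hspd1 and Hspe1 were counted both in this list and in the heat-inducible one. Of 14 genes restricted to germ cells or muscle elsewhere, 7 were detected, 4 above and 3 below 0, and Cct6b was the 1 called.

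**Figure D3:**
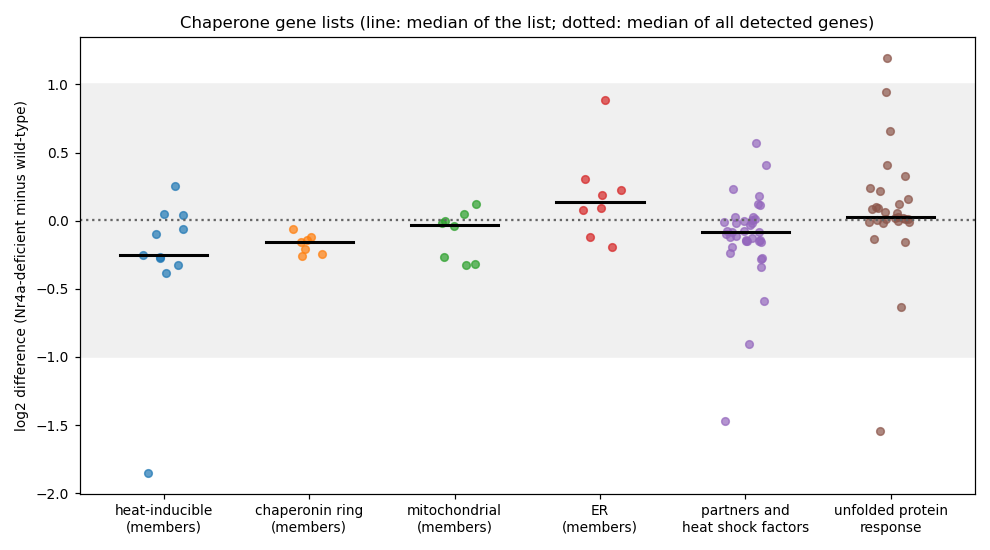
Log2 difference (y axis, Nr4a-deficient label minus wild-type, measured values with 1 array per group) of the genes of 6 lists, with a black line at each list's median and a dotted line at the median of all detected genes (0.0033). The lists were chosen with earlier results of these data known. The heat-inducible list has its median at -0.25 and the chaperonin ring at -0.16, and the ER list at 0.14, which is -0.23 with the spike-in scale; Hsf4 and Ahsa2, below background in the library labelled Nr4a-deficient, are drawn at their measured values.

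Promoter windows were searched on both strands for the motifs of the heat shock and ER stress responses. Of the 88 members, 72 had a window in the RefSeq table. The heat shock element with 2 repeats (GAANNTTC or TTCNNGAA) was found in 20 of these genes (27.8%) and in 17.0% of all 27025 genes of the table. The element with 3 repeats, which contains the shorter form, with TTC or GAA added at the same spacing, was found in Dnajb6, Hspd1, Hspe1 and Hsph1 (5.56%) and in 0.66% of all genes. The windows of Hspd1 and Hspe1 overlap, so the counts of both forms can hold the same letters for both genes. In the heat-inducible list, 10 of 12 genes with a window held the shorter form. Of these, Hspd1, Hspe1, Hsph1, Hspb1, Dnaja1 and Dnajb4 lay below 0, and Bag3 above it, while Hspa1a, Hspa1b and Hspb8 gave no difference.

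The ER stress element (CCAAT and CCACG, 9 bases apart) was found in Dnajc3, Hsp90b1 and Hspa5, 4.17% of the members, and in 0.14% of all genes. Their differences were 0.88, 0.31 and 0.19, and with the spike-in scale 0.51, -0.06 and -0.18. Any link between the element and these differences was not tested. Outside the members, 6 of 25 genes of the unfolded protein response list held it, 4 of them with differences from 0.09 to 0.22 and 2 below 0, at -0.16 and, for Derl3, at -1.54. A match is a description of letters, and binding was not measured. The windows of the 3 genes are printed with the element in capitals, which Hsp90b1 holds once on each strand:
Dnajc3 promoter, chr14:118937682-118937981, + strand: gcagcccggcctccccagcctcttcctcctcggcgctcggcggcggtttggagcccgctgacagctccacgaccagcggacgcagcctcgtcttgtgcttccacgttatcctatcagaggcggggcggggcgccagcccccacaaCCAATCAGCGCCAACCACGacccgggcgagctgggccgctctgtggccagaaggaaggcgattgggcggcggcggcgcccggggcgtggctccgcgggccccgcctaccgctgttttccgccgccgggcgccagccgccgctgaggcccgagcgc
Hsp90b1 promoter, chr10:86705395-86705694, - strand: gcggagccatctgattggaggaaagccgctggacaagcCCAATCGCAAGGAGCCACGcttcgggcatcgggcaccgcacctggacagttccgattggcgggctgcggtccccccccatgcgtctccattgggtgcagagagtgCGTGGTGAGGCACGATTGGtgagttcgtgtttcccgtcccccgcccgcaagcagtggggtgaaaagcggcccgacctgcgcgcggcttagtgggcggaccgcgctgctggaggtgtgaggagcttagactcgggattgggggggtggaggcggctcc
Hspa5 promoter, chr2:34771840-34772139, + strand: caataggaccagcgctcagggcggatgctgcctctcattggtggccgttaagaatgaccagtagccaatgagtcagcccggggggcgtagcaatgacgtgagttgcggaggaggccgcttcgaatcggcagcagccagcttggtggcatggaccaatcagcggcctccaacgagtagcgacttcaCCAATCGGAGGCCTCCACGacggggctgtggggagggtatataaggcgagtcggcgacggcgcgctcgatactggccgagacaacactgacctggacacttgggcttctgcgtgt

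Regulators and partners outside the naming rule mostly lay near 0. All 37 listed heat shock factors and partners of Hsp70, Hsp90 and the chaperonin were detected, with a median of -0.084, 10 above and 27 below 0. Hsf1, the main heat shock factor, had 4890 units in the library labelled Nr4a-deficient, against 5809 in wild-type (-0.03). Hsf2 had 598 and 1046 units (-0.59, 1.51-fold lower), and Hsf4 had 49.9 and 161, with the library labelled Nr4a-deficient below background, a bound of at least 2.71-fold lower. Of the 30 genes of the unfolded protein response and ER folding, 29 were detected, with a median of 0.029, 21 above and 8 below 0 (median -0.34 with the spike-in scale). Atf6, a sensor of ER stress, was 2.29-fold higher, with 357 and 181 units, and Derl3, an ER degradation factor, was 2.91-fold lower, with 220 and 743. Atf6 and Derl3 were the only genes of the unfolded protein response list past 2-fold, 1 in each direction. Among all detected genes, 9.63% passed 2-fold in either direction, so these calls do not set the list apart.

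Markers of other cells also moved between the libraries, and their part in these differences was not tested. Of 12 Treg and T cell genes, all detected, none was higher and 2 were lower (Il2ra 2.42-fold, Ikzf4 6.39-fold), and their summed scaled level was 319 in the library labelled Nr4a-deficient, against 351 in wild-type. Of 10 B cell genes, 8 were detected, with 2 higher (Fcrla and Spib), a median of 0.83 and summed levels of 19.6 and 8.87, while Pax5 and Blk were not above background. Of 6 plasma cell genes, 5 were detected, with Jchain 3.71-fold higher, Derl3 lower and Sdc1 not above background. Their summed levels were 16.4 and 15.01, mostly from Xbp1, which is also in the unfolded protein response list. Plasma cells are rich in ER. Of 13 dendritic and myeloid genes, 12 were detected, with 4 higher, 4 lower and Xcr1 not above background. Higher in the library labelled Nr4a-deficient were Cd209d (32.1-fold), Itgax (6.27-fold), Clec9a (5.63-fold) and Lyz2 (2.04-fold). Lower were C1qc (3.03-fold), C1qa (2.92-fold), C1qb (2.74-fold) and Cd14 (2.57-fold). The summed levels of 129 and 133 do not show these opposite moves. The brightest gene in them was Siglech, a gene of plasmacytoid dendritic cells. Siglech had 136839 and 147869 units at its brightest probe (0.10) and a difference of 6.63 at another of its 3 probes. Of 9 NK and CD8 T cell genes, 8 were detected, with 2 higher, Ncr1 not above background and levels of 3.50 and 2.55. Of 9 erythroid genes, 7 were detected, with 6 lower, Klf1 not above background and levels of 6.49 and 22.7. Of 6 germ cell and epithelial genes, 4 were detected, with Cdh1 at least 4.70-fold and Ddx4 at least 3.50-fold higher, levels of 0.548 and 0.336, and Dazl and Krt8 not above background.

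The scale between the arrays set the sign of small differences. After the 75th percentile scaling, 8 spike-in RNAs lay 0.37 ± 0.058 (SD, n = 8 RNAs) higher in the library labelled Nr4a-deficient. With them as the scale, 26 of the 73 detected members changed sign, and the median of the members was -0.395 where that of all genes was -0.368. The median and spike-in scales move every gene alike, so they leave distances between lists as they were. With quantile normalization, which does not, the ER list was at 0.18, the chaperonin ring at -0.13 and the heat-inducible list at -0.23. With normexp the ring, at -0.18, lay below the heat-inducible list, at -0.10.

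**Figure D4:**
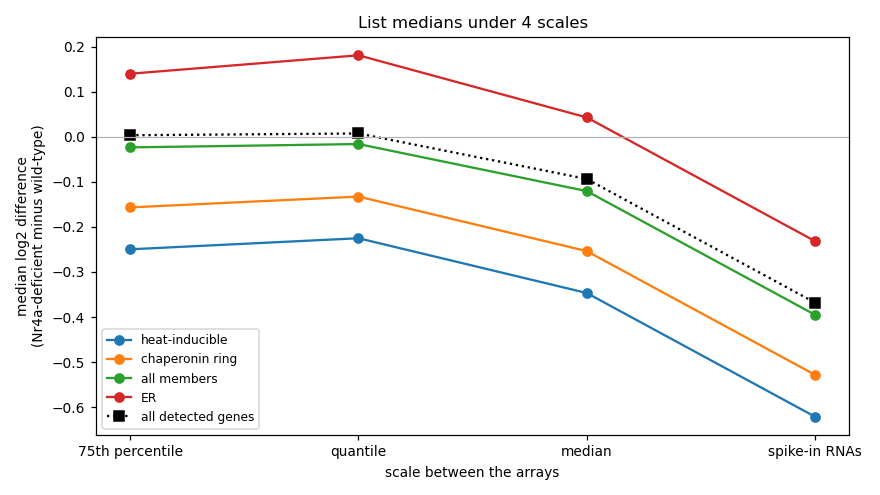
Median log2 difference (y axis, Nr4a-deficient label minus wild-type) of 3 lists, all members and all detected genes under 4 scales (x axis), with 1 array per group. All lines drop with the spike-in scale, where the ER list passes below 0 (-0.23) and all genes lie at -0.37; the median and spike-in scales shift every gene by 1 amount, so among these only quantile normalization could alter distances between the lines.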

How the data were processed

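Total RNA of sorted Treg cells was measured on 1 single-colour Agilent array for each of 2 groups. Per the file headers, the deposited scanner files hold intensity values with background and within-array trends already taken out by the scanner software, Agilent Feature Extraction 10.7.3.1. No normalization across the arrays is recorded there. The authors' deposited value table holds intensity values on a linear scale and not centred: 99.7% of probes on each array lay within 1% of the scanner value, and its column medians were 143.7 and 156.8. Both arrays were on 1 slide and from 1 scan.

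Each array had 43020 gene spots for 39429 probes. Outlier spots (173 in the library labelled Nr4a-deficient, 209 in wild-type) were left out, none was saturated, and repeated spots were averaged, which left 39348 probes with a usable spot on both arrays. The signal was put on the log2 scale minus the array's 75th percentile (1762 and 2047 units). A probe was detected when over 50% of its spots were called well above background, which held for 58.7% and 55.6% of probes. A gene took its brightest detected probe. A gene detected on 1 array has a bound against the higher of the dim probe and the lowest signal called on that array. Genes were renamed through RefSeq GRCm38.p6 (of all 39429 probes, 27234 by accession, 3576 by symbol, 565 by synonym, 8054 unchanged), and probe coordinates are the design's, on mm9. Promoter windows are RefSeq's, on GRCm38.p6. Whether libraries came from separate mice is not given. Precision is limited by the number of arrays, and no p-value was computed. The code was tested on simulated data.

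Members and lists were chosen with earlier results of these data known. Full values go to members past 2-fold, the extremes of each class and a core panel. Alternatives were the median, the spike-ins or quantiles as the scale, normexp (limma 3.58.1, R 4.3.3), the value table, the mean of probes, other filters, 1.5-fold and measured values for bounds. Other computing used Python 3.11.15, numpy 2.4.6 and pandas 2.3.3.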

Additional observations from a re-analysis of the deposited data

How the results depend on the processing

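Each group had 1 array, so nothing shows the spread between mice. The median of the members moved from -0.024 to -0.12 with the median of all probes as the scale and to -0.395 with the spike-in RNAs, where the median of all genes went from 0.0033 to -0.094 and -0.368. The count of members at least 2-fold higher was 2 in place of 1 with the mean of probes (Dnajb11 added, through a probe below background in wild-type), with no filter on dim probes (Dnajc28 added) and with measured values for bounds (Dnajc28 added), and 3 at 1.5-fold (Dnajc3 and Dnajc28 added). The count lower was 3 in place of 1 with no filter, which adds Hspa1a and Hspb8, both below background on each array. Cct6b and Hspb1 passed 2-fold in every setting run, and no called member turned its direction. Of the 73 detected members, the difference changed sign in 12 with the median scale, 26 with the spike-ins, 7 with quantiles, 3 with the mean of probes, 2 with normexp and 0 with the value table. Signal near background limits Hspb1, Cct6b and Dnajc28. No paired analysis was possible because each group has 1 array.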
